A study of Arabidopsis thaliana with 12 samples.

Results

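Bleomycin (BLM) lowered the level of many transcripts in Arabidopsis thaliana seedlings, and for a small group of them the level was higher again when the immune inducer INA was given together with BLM. These BLM-lowered, INA-restored transcripts were chosen on group means of log2 values: BLM minus the control CK had to be -0.4 or less, and BLM+INA minus BLM 0.5 or more. The rule found 53 of 22746 probe sets. It took 3.39% of the 1563 probe sets with BLM minus CK at -0.4 or less, and the other 1510 are called not restored here. Of the 53 members, 26 were paired with exactly 1 gene in the gene table, 1 with several genes, and 26 were outside that table and are given by probe set name.

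The 12 arrays came from wild-type seedlings in 4 groups of 3 biological replicates: BLM+INA (4 µg/ml BLM with 10 µM INA), BLM (4 µg/ml), INA (10 µM) and the untreated CK. All were raised on MS plates, and the length of treatment and the seedlings' age are not given in the sources used here. By its title the study asked how damage to DNA and induced immunity act together on defence genes. The authors' values are on a log2 scale with every probe set's median set to 0, so differences between groups can be read but levels cannot be compared between genes. Values below are log2 values minus the mean of the 3 CK arrays of the same probe set, and a gain is BLM+INA minus BLM. In RNA from whole seedlings, fewer cells of a type and less RNA per cell cannot be told apart.

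BLM cuts DNA strands, and plant cells answer such breaks with repair genes and a halt of cell division. INA is a functional analogue of salicylic acid, the hormone of systemic acquired resistance, which acts through the coactivator NPR1 on defence and secretory pathway genes. Chitinases, thionins, lipid-transfer proteins and class III peroxidases are families of mostly secreted proteins, with some members known from defence and others from the growing cell wall.

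The CK, BLM and BLM+INA arrays chose the members, so differences among these groups are a description and carry no test. BLM minus CK had a median of -0.75 over the 53 members (-3.21 to -0.42), beside -0.60 for the not restored and 0.04 for all probe sets. The gain had a median of 0.68 (0.50 to 1.91), beside 0.06 for the not restored and -0.02 for all. The medians over the members in single arrays were -0.13, -0.13 and -0.11 in BLM+INA, -0.88, -0.81 and -0.69 in BLM, 0.04, 0.05 and 0.12 in INA, and -0.03, -0.03 and 0.05 in CK. By these medians the BLM arrays stood apart, and the BLM+INA arrays lay between them and the CK arrays.

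The rule fixes most of what a count over these contrasts can show. The 3 BLM arrays lay below the 3 CK arrays in 52 of 53 members (14.3% of all probe sets), and the limma fit over all probe sets (adjusted p under 0.05) called 49 lower (8.29% of all). BLM+INA exceeded BLM in every pair of arrays in 45 (9.63% of all), and the fit called 40 higher (3.44% of all). The spacing of the stored numbers put 41 members in a class of log2 level 4 to 8, 12 in 8 or over and 0 in under 4, which held 24.8% of all probe sets. A lower class needed 3 of the 12 values off the coarser spacing. The class is therefore rough, and a few low arrays could lower it.

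With both agents, 13 members stood above CK by 0.2 or more (20.5% of all probe sets), 17 lay between -0.2 and 0.2, and 23 were still lower by 0.2 or more (19.3% of all). The 3 BLM+INA arrays lay above every CK array in 9 members (19.3% of all) and below every CK array in 19 (18.3% of all). The mean was above that of CK in 23 (53.2% of all) and at -0.4 or less in 17 (8.53% of all). The fit called 8 higher than CK (11.2% of all) and 18 lower (11% of all). Of the 18 members with BLM minus CK at -1 or less, 17 were still below CK and 1, probe set 247954_at, was at 0.02. Of the 35 with a smaller fall, 22 had a BLM+INA mean above that of CK. Part of this split is built into the rule, since a fall under 0.5, as in 7 members, followed by a gain of 0.5 must end above CK. The rule took 1.51% of the probe sets with a fall under 0.5, 3.55% of those with 0.5 to 1, 5.45% of those with 1 to 2 and 7.27% of the 55 with 2 or more.

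**Figure D1:**
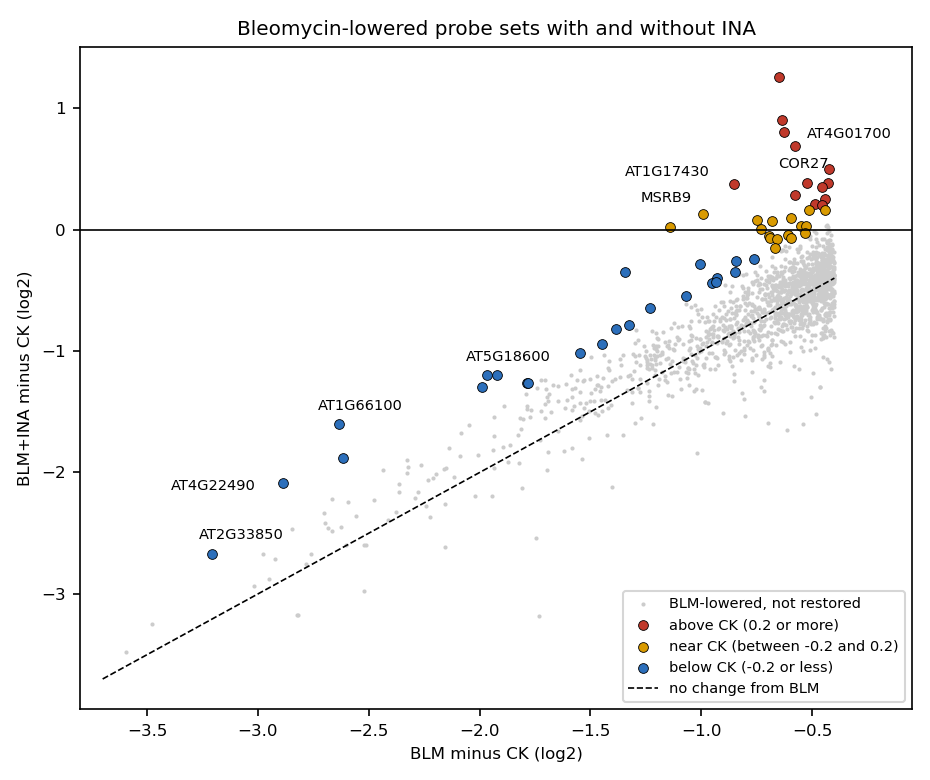
Each point is 1 of the 1563 probe sets with BLM minus CK at -0.4 or less, with BLM minus CK on the x axis and BLM+INA minus CK on the y axis, both in log2 units. Large points are the 53 members by class, the dashed line marks no change from BLM and the solid line the CK mean. The 13 members above CK all had falls under 1, and the deepest fall, -3.21 in AT2G33850, ended at -2.67.

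Among members that passed the control, AT4G01700 had the largest gain of those with a known gene. It encodes a chitinase family protein, an enzyme class that cleaves chitin of fungal walls. AT4G01700 had 0.78, 0.73 and 0.55 in BLM+INA arrays, against -0.99, -0.38 and -0.37 in BLM arrays, 0.17, 0.39 and 0.46 in INA arrays and -0.25, 0.17 and 0.07 in CK arrays. BLM+INA was 2.4-fold above BLM, and its 3 arrays lay above all arrays of the other groups. INA overlapped CK in 1 array and stood at 0.34 ± 0.15 (SE, n = 3 per group), which did not pass the test (limma adjusted p = 0.639). Without BLM replicate 1, its lowest array, AT4G01700 had BLM minus CK at -0.37 and would miss the rule.

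AT1G17430 belongs to the alpha/beta-hydrolase superfamily, enzymes of many substrates. It had 0.57, 0.16 and 0.39 in BLM+INA arrays, against -1.06, -0.86 and -0.65 in BLM arrays, -0.04, 0.22 and 0.50 in INA arrays and -0.11, 0.06 and 0.05 in CK arrays. The BLM+INA arrays lay above both BLM and CK, at a mean 2.34-fold that of BLM, while INA overlapped CK.

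COR27 is a cold-regulated gene that is known to act on the circadian clock. It had 0.47, 0.17 and 0.53 in BLM+INA arrays, against -0.56, -0.46 and -0.56 in BLM arrays, 0.09, 0.30 and 0.54 in INA arrays and -0.12, -0.07 and 0.19 in CK arrays. BLM alone stood apart, and BLM+INA, INA and CK overlapped. Of 12 listed clock genes only 1, GI, was paired with a probe set, so the clock was not surveyed. GI, which is not a member, had BLM minus CK at -0.17 ± 0.11 and a gain of -0.01 ± 0.11 (SE).

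AT5G28630, which encodes a glycine-rich protein, had 0.48, 0.13 and 0.43 in BLM+INA arrays, against -0.44, -0.57 and -0.36 in BLM arrays, 0.10, 0.10 and 0.25 in INA arrays and -0.28, 0.07 and 0.20 in CK arrays. Its BLM arrays were again below all others, and the other groups overlapped. Without CK replicate 3, AT5G28630 had BLM minus CK at -0.36 and would miss the rule. These 4 genes are the named members of the class above CK.

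The other 9 members above CK were probe sets without a gene name, and 3 of them had the largest gains of all 53. Probe set 247604_at had 1.39, 1.16 and 1.21 in BLM+INA arrays, against -0.74, -0.74 and -0.47 in BLM arrays, 0.80, 0.64 and 0.91 in INA arrays and -0.08, -0.05 and 0.12 in CK arrays. Its 4 groups did not overlap, with BLM lowest, then CK, then INA, and BLM+INA highest, 3.75-fold above BLM. Probe set 259272_at had 1.08, 0.51 and 1.13 in BLM+INA arrays, against -0.64, -0.73 and -0.54 in BLM arrays, 0.48, 0.30 and 0.55 in INA arrays and -0.10, 0.02 and 0.09 in CK arrays. Probe set 265067_at had 0.64, 0.71 and 1.07 in BLM+INA arrays, against -0.66, -0.71 and -0.51 in BLM arrays, 0.36, 0.35 and 0.40 in INA arrays and 0.01, -0.20 and 0.19 in CK arrays. In both, BLM+INA and INA lay above CK and BLM below it, and BLM+INA replicate 2 of 259272_at lay inside the range of INA.

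**Figure D2:**
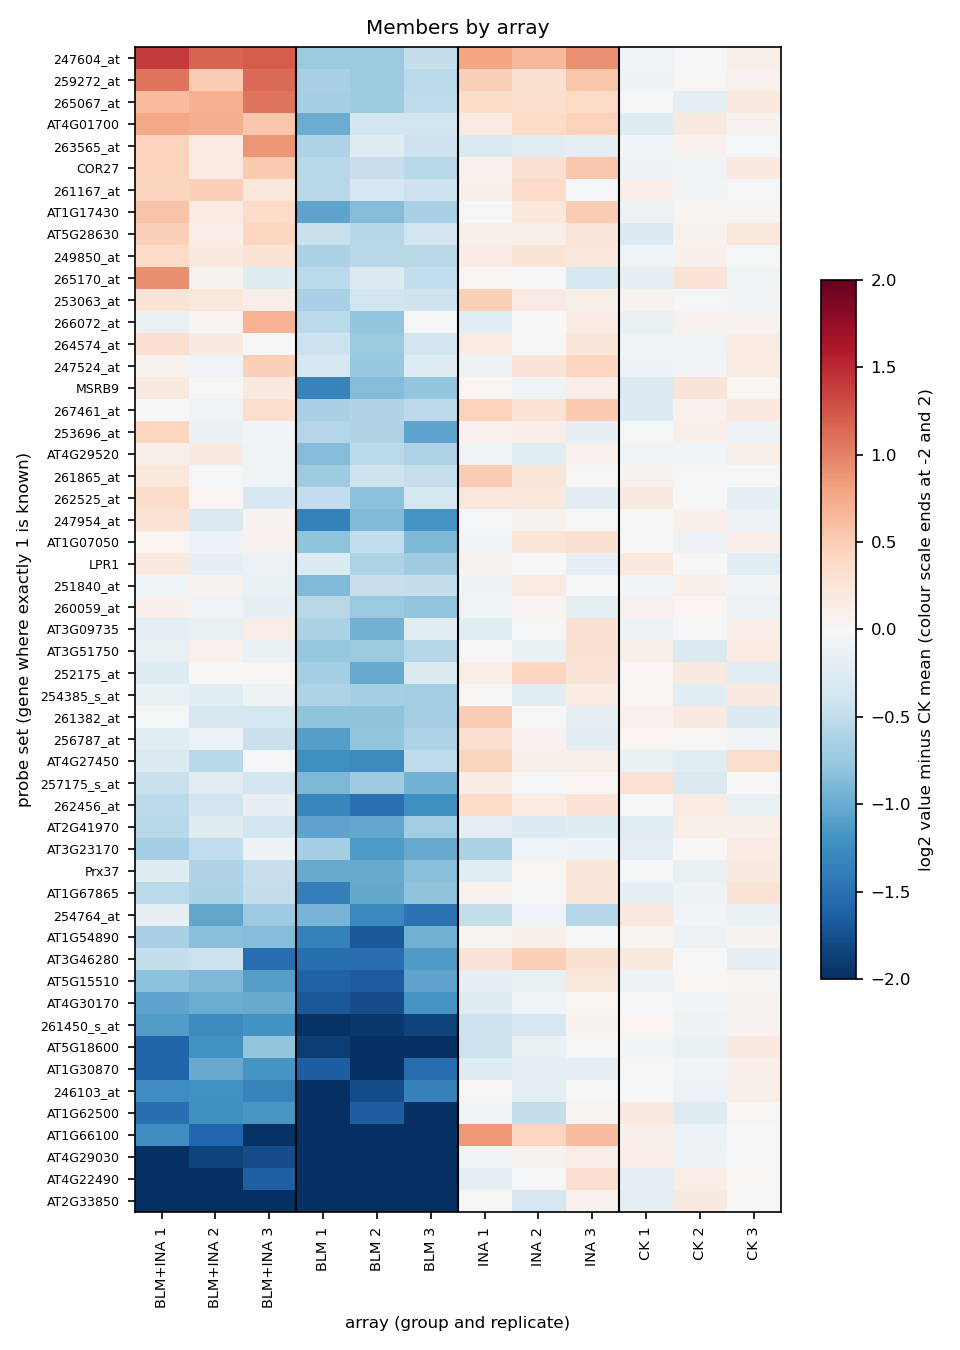
Rows are the 53 members in falling order of BLM+INA minus CK, and columns are the 12 arrays by group and replicate. Colour is the log2 value minus the CK mean, on a scale that ends at -2 and 2. BLM columns are blue in nearly every row, BLM+INA columns run red to blue from top to bottom, and INA columns are pale apart from a few rows such as 247604_at and AT1G66100.

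The 17 members within 0.2 of CK regained 76.8% to 136% of their fall, and in 0 of them did the BLM+INA arrays lie apart from CK. Both largely follow from the bounds of this class, so they are a description only. MSRB9 is a methionine sulfoxide reductase of the B type, which reduces oxidised methionine in proteins. MSRB9 had 0.19, -0.01 and 0.20 in BLM+INA arrays, against -1.32, -0.88 and -0.78 in BLM arrays, 0.04, -0.09 and 0.13 in INA arrays and -0.30, 0.25 and 0.04 in CK arrays. BLM was below all other arrays, BLM+INA was 2.17-fold above it, and both INA groups fell inside the CK range.

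A list of 9 MSRB genes was written from general knowledge after the members were known, and 4 of them, MSRB9 included, were paired with a probe set in the gene table. The rest of the family is not described here. MSRB3 had BLM minus CK at 0.12 ± 0.13 and a gain of 0.05, and MSRB5 had 0.08 ± 0.13 and -0.26. MSRB6 rose with BLM, by 0.38 ± 0.11 (limma adjusted p = 0.0274), and had a gain of -0.26.

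AT1G07050, which encodes a protein with a CCT motif, had 0.05, -0.11 and 0.08 in BLM+INA arrays, against -0.81, -0.49 and -0.90 in BLM arrays, -0.05, 0.25 and 0.30 in INA arrays and 0.01, -0.11 and 0.09 in CK arrays. AT4G29520 had 0.10, 0.18 and -0.07 in BLM+INA arrays, against -0.88, -0.54 and -0.62 in BLM arrays, -0.05, -0.23 and 0.09 in INA arrays and -0.06, -0.05 and 0.11 in CK arrays. In both genes BLM alone stood apart and BLM+INA overlapped CK.

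LPR1, a multicopper oxidase gene known from the arrest of root growth at low phosphate, had 0.19, -0.16 and -0.11 in BLM+INA arrays, against -0.27, -0.62 and -0.71 in BLM arrays, 0.07, 0.01 and -0.17 in INA arrays and 0.20, 0.01 and -0.21 in CK arrays. Its groups were barely separated, with the highest BLM array just under the lowest CK and BLM+INA arrays. AT3G51750 and the S1FA-like gene AT3G09735 had gains of 0.62 and 0.53 and ended at -0.07 and -0.07.

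The 23 members that stayed below CK regained 16.9% to 73.8% of their fall (median 40.8%), and 16 of them have a known gene. AT1G66100, of the thionin family of small antimicrobial proteins, had -1.24, -1.59 and -1.98 in BLM+INA arrays, against -1.99, -2.86 and -3.06 in BLM arrays, 0.86, 0.43 and 0.62 in INA arrays and 0.11, -0.11 and 0.01 in CK arrays. BLM+INA was 2.05-fold above BLM, but its lowest array was level with the highest BLM array to the first decimal. INA alone lay above every CK array, so that CK lay below INA and above both BLM groups.

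AT4G22490 and AT1G62500 belong to the superfamily of lipid-transfer proteins and seed storage albumins. AT4G22490 had -2.45, -2.18 and -1.64 in BLM+INA arrays, against -3.57, -2.59 and -2.50 in BLM arrays, -0.20, -0.03 and 0.32 in INA arrays and -0.17, 0.13 and 0.04 in CK arrays. AT1G62500 had -1.51, -1.23 and -1.16 in BLM+INA arrays, against -2.24, -1.66 and -2.07 in BLM arrays, -0.06, -0.47 and 0.06 in INA arrays and 0.20, -0.24 and 0.04 in CK arrays. In both, BLM+INA lay above BLM and far below CK, and INA overlapped CK. The gain of AT4G22490 was 0.80, and 0.45 without BLM replicate 1. AT1G62510, next to AT1G62500 in the RefSeq gene order, went the other way with a fall of BLM+INA against BLM (-1.70, limma adjusted p = 4.72e-07).

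AT5G18600, a glutaredoxin family gene, had -1.60, -1.21 and -0.79 in BLM+INA arrays, against -1.89, -2.03 and -1.99 in BLM arrays, -0.42, -0.14 and -0.03 in INA arrays and -0.05, -0.14 and 0.19 in CK arrays. The BLM arrays were close together, and the BLM+INA arrays were spread between them and CK. AT4G29030 had -2.02, -1.85 and -1.77 in BLM+INA arrays, against -2.72, -2.97 and -2.16 in BLM arrays, -0.09, 0.08 and 0.13 in INA arrays and 0.13, -0.10 and -0.03 in CK arrays. AT2G33850, which encodes an E6-like protein, had -3.19, -2.26 and -2.55 in BLM+INA arrays, against -3.12, -3.31 and -3.20 in BLM arrays, 0.02, -0.33 and 0.09 in INA arrays and -0.18, 0.17 and 0.00 in CK arrays. AT2G33850 had the deepest fall of the 53, 9.25-fold, and its BLM+INA replicate 1 lay inside the BLM range. Its gain was 0.54, and 0.34 without BLM+INA replicate 2.

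Class III peroxidases are secreted haem enzymes that stiffen or loosen the cell wall, and 3 were members. AT1G30870 had -1.60, -1.01 and -1.18 in BLM+INA arrays, against -1.64, -2.19 and -1.52 in BLM arrays, -0.25, -0.20 and -0.17 in INA arrays and -0.04, -0.07 and 0.10 in CK arrays. AT4G30170 had -1.06, -0.99 and -1.01 in BLM+INA arrays, against -1.69, -1.78 and -1.18 in BLM arrays, -0.25, -0.07 and 0.05 in INA arrays and -0.02, -0.05 and 0.07 in CK arrays. Prx37 had -0.24, -0.61 and -0.46 in BLM+INA arrays, against -1.02, -1.01 and -0.83 in BLM arrays, -0.23, 0.03 and 0.24 in INA arrays and -0.02, -0.15 and 0.17 in CK arrays. All 3 stayed below CK with both agents, and AT1G30870 was the 1 of them whose BLM+INA arrays overlapped BLM. The gain of AT1G30870 was 0.52, and 0.32 without BLM replicate 2. Each of the 3 peroxidases would miss the rule without 1 of its BLM arrays.

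A list of 72 class III peroxidase genes, also written after the members were known, gives the rest of the family. Of 54 paired with a probe set in the gene table, 21 fell and 6 rose with BLM against CK (8.29% and 8.38% of all probe sets), with a median of -0.18. BLM+INA minus BLM had a median of 0.02, and 3 were called higher and 0 lower (3.44% and 2.37% of all). The 3 were the members AT4G30170 and Prx37 and the gene AT4G11290, which missed the rule with a gain of 0.45. The 3 member peroxidases were chosen for their fall and gain, so these family counts are a description and nothing is read from them. The deepest falls among these 54 were not restored: AT4G26010 stood at -2.82 ± 0.17 with a gain of -0.35, and AT3G49960 at -2.22 ± 0.12 with a gain of -0.14. AT4G08780, the neighbour of Prx37, rose with BLM by 0.36 ± 0.10 (limma adjusted p = 0.0209).

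**Figure D3:**
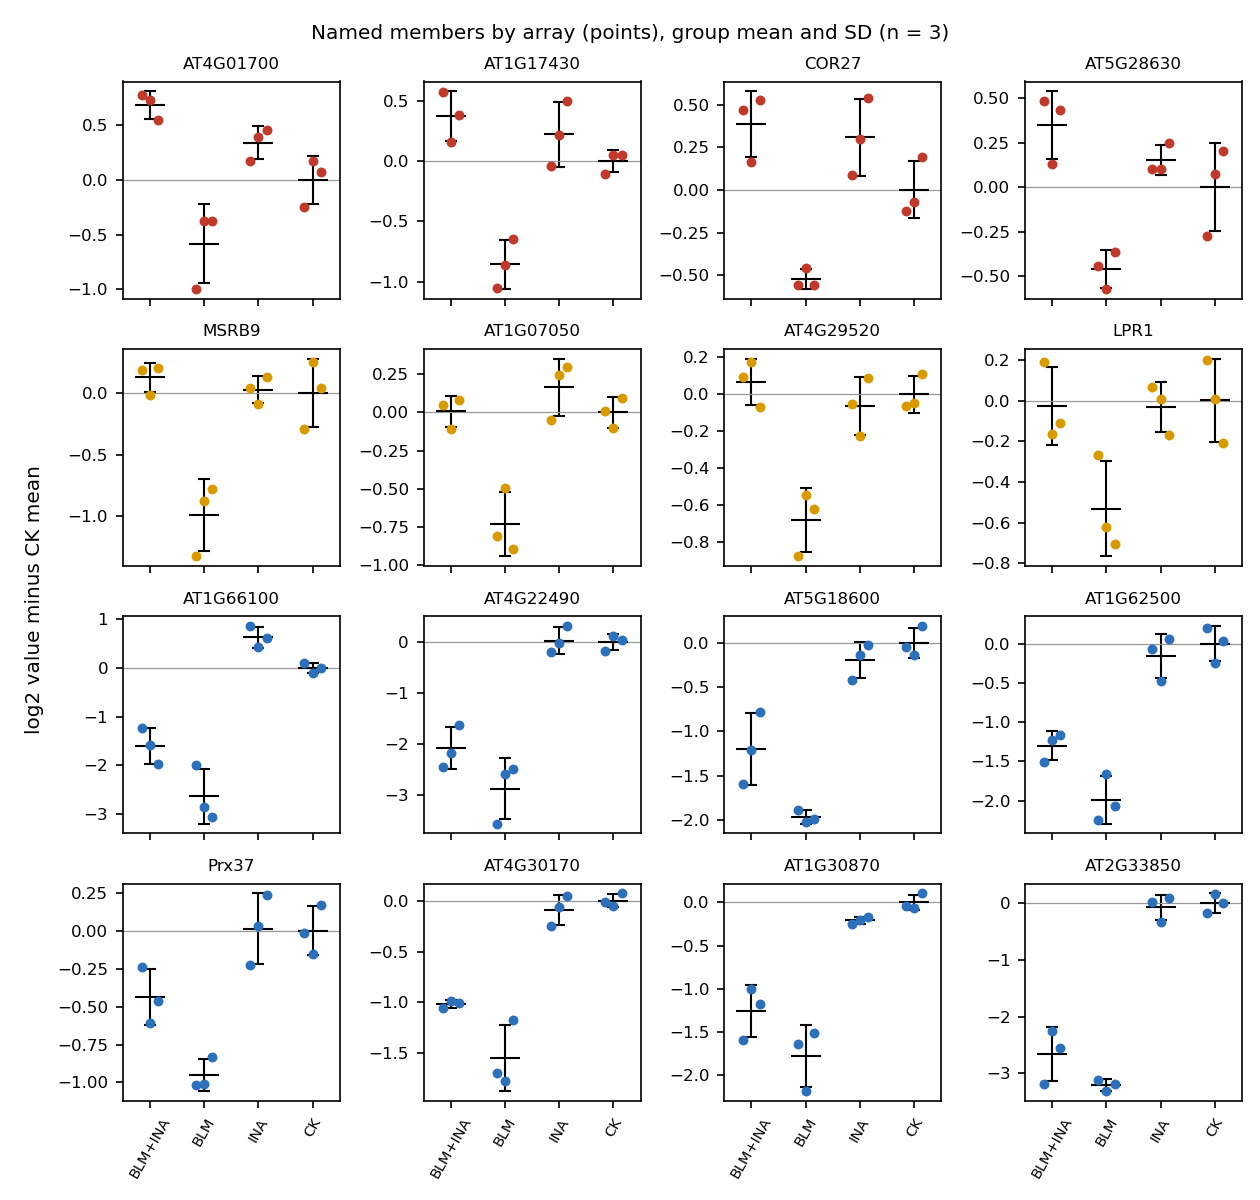
Points are the 12 arrays of 16 named members, as log2 value minus the CK mean, with bars for the group mean and SD (n = 3). The top row holds genes above CK with both agents, the next row genes near CK and the lower rows genes below CK, and vertical scales differ between panels. BLM has the lowest mean in each panel, and in the lower rows BLM+INA lies between BLM and CK.

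Other named members below CK had gains of 0.50 to 0.72. AT4G27450, which encodes an aluminium-induced protein with YGL and LRDR motifs, had -0.27, -0.55 and -0.04 in BLM+INA arrays, against -1.23, -1.28 and -0.52 in BLM arrays, 0.45, 0.12 and 0.12 in INA arrays and -0.15, -0.21 and 0.36 in CK arrays. AT3G46280, a protein kinase-related gene, had -0.48, -0.43 and -1.53 in BLM+INA arrays, against -1.50, -1.52 and -1.14 in BLM arrays, 0.26, 0.47 and 0.31 in INA arrays and 0.17, -0.01 and -0.17 in CK arrays. In AT3G46280, BLM+INA replicate 3 was as low as the lowest BLM array, and in AT4G27450, BLM+INA replicate 2 lay just below BLM replicate 3. The gain of AT3G46280 was 0.57, 0.38 without BLM+INA replicate 2 and 0.93 without BLM+INA replicate 3.

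AT5G15510 belongs to the TPX2 family of microtubule proteins. It had -0.82, -0.91 and -1.11 in BLM+INA arrays, against -1.62, -1.67 and -1.05 in BLM arrays, -0.18, -0.14 and 0.23 in INA arrays and -0.10, 0.04 and 0.05 in CK arrays. BLM+INA overlapped BLM in this gene. Of the 10 genes of a G2 and mitosis list, 3 were measured (AUR1, AUR2 and KINESIN-12B). All 3 fell with BLM (8.29% of all probe sets), with a median gain of 0.09. The fit called 0 of 3 higher with BLM+INA than with BLM (3.44% of all), too few genes to read a result from. AT1G54890 (related to late embryogenesis abundant proteins), AT1G67865, AT3G23170 and the receptor-like cytoplasmic kinase gene AT2G41970 ended at -0.79, -0.55, -0.43 and -0.40.

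INA alone was measured on arrays that the rule did not use, although the CK arrays are shared. The fit called 1 of 53 members higher with INA than with CK (0.91% of all probe sets) and 0 lower (0.251% of all). The 1 was 247604_at, at 0.78 ± 0.11 (SE, limma adjusted p = 0.000595), with 3 of 3 INA arrays above every CK array. At an unadjusted p of 0.05 in limma, 10 were higher (4.22% of all) and 0 lower (3.07% of all). The 3 INA arrays lay above the 3 CK arrays in 8 members (6.96% of all) and below them in 2 (5.68% of all).

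INA minus CK had a median of 0.05 over the 53 (-0.38 to 0.78), beside -0.05 for the not restored and 0.01 for all probe sets. It was above 0 in 35 members (52.7% of all probe sets), at 0.2 or more in 15 (7.36% of all), at 0.5 or more in 2 (1.17% of all) and at -0.2 or less in 6 (5.94% of all).

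AT1G66100 (0.64 ± 0.22, limma adjusted p = 0.312) had the highest INA minus CK of the named genes. Its arrays had an SD of 0.56 in BLM, 0.37 in BLM+INA, 0.22 in INA and 0.11 in CK. AT1G66100 did not pass in the main fit. It did pass with the replicate number as a block (adjusted p = 0.0384) and with the CK and INA arrays alone in the fit (adjusted p = 0.0215), which makes 2 members called. Without BLM+INA replicate 2, the second call was 259272_at instead (0.44, adjusted p = 0.0476). AT3G46280 (0.34 ± 0.21), AT4G01700 and COR27 (0.31 ± 0.13) followed, and AT3G23170 (-0.27 ± 0.17), AT2G41970 (-0.24 ± 0.13) and AT1G30870 (-0.21 ± 0.16) were lowest, none of them past the threshold.

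INA alone gave less than the gain on BLM in all 53 members: INA minus CK reached the gain in 0 of 53, against 54.7% of all probe sets. MSRB9 had 1.12 with BLM present and 0.03 without, AT1G17430 had 1.23 and 0.23, and AT5G18600 had 0.77 and -0.20. The rule chose large gains, so nothing is read from this count. BLM+INA minus INA had a median of -0.16, with 4 members called higher (9.27% of all) and 17 lower (9.52% of all), also as a description. The arrays of BLM+INA lay wholly above those of INA in 4 members (17.1% of all) and wholly below in 19 (16.6% of all).

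**Figure D4:**
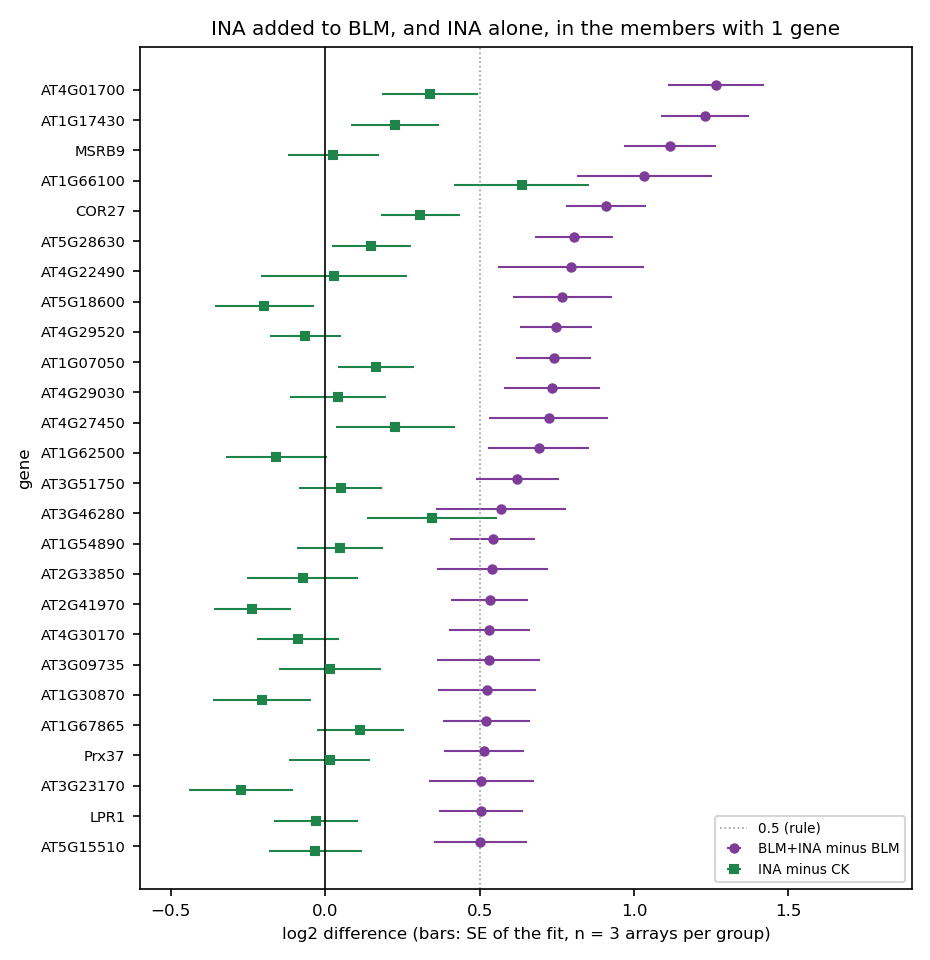
For the 26 members with exactly 1 gene, circles give BLM+INA minus BLM and squares INA minus CK in log2 units, with the SE of the fit (n = 3 arrays per group). Circles lie at or right of the dotted line at 0.5 by the rule, and squares lie on both sides of 0, between -0.27 and 0.64.

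The rule was also applied without 1 replicate number at a time and the chosen probe sets were read in the 4 arrays left out. Without number 1 it chose 58 probe sets, whose median gain was 0.52 in the left-out arrays and 0.67 in the arrays that chose them. Without number 2 it chose 73, with 0.41 and 0.63. Without number 3 it chose 109, with 0.30 and 0.62. The left-out gain was above 0 in 49 of 58, 64 of 73 and 89 of 109. Its median over the not restored was 0.02, 0.02 and -0.01, and over all probe sets -0.002, -0.03 and -0.01. The share of all probe sets above 0 was not counted, so these counts are a description only.

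Membership depended on single arrays. Of the 53, 23 met the rule in each of the 9 sets without 1 CK, BLM or BLM+INA array, among them 11 with a known gene such as MSRB9, AT1G17430, COR27, AT1G66100 and AT5G18600. The other 30, of which 15 have a known gene, missed it in at least 1 set, among them AT4G01700, AT5G28630, AT4G22490, AT2G33850 and the 3 peroxidases. In 10 members, 5 of them with a known gene, leaving out 1 array moved the fall or the gain by over 1.5 times. Without BLM replicate 3 the rule found 96 probe sets, 48 of them members. Single high BLM+INA arrays carried some unnamed members, such as 265170_at with 0.94, 0.06 and -0.25 in BLM+INA arrays, against -0.54, -0.30 and -0.49 in BLM arrays and -0.17, 0.26 and -0.09 in CK arrays.

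At the threshold of the fall, 263565_at (-0.42), 261167_at (-0.43) and 247524_at (-0.44) were just inside, and AT5G40690 (-0.40), 254166_at (-0.40) and AT1G67860 (-0.39) just outside. AT5G40690, 254166_at and AT1G67860 had gains of 0.64, 0.70 and 0.53. At the threshold of the gain, AT5G15510, 257175_s_at and LPR1 were just inside at 0.50 each, and AT3G43670 (0.49), AT3G47380 (0.49) and AKINBETA1 (0.48) just outside. Of 25 probe sets of genes next to 17 named members, 0 had a gain of 0.5 or more. In the fit, 3.44% of all probe sets were called higher with BLM+INA than with BLM, so nothing is read from this count.

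The 15 gene lists for pathways and cell types had 34 genes paired with a probe set in the gene table, and 0 of these were members. The rule took only 53 of all 22746 probe sets, so nothing is read from this count. Few listed genes were paired, such as 4 of 32 in the salicylic acid list and 3 of 10 root markers, so the pathways were not surveyed as a whole. In the salicylic acid list, 0 of 4 measured genes passed with INA alone in limma (0.91% of all probe sets rose and 0.251% fell). INA minus CK was 0.55 in WRKY53, 0.50 in UGT76B1, 0.41 in GRX480 and 0.04 in SAG101. WRKY53 and SAG101 rose with BLM (8.38% of all). WRKY53, GRX480 and UGT76B1 were higher with BLM+INA than with BLM (3.44% of all). In the endoplasmic reticulum list, 3 of 4 were higher with BLM+INA than with BLM (3.44% of all). CRT1b, a calreticulin gene of protein folding, fell by 0.35 ± 0.10 with BLM and had a gain of 0.37 ± 0.10 (limma adjusted p = 0.0203 and 0.0345), short of both thresholds of the rule. The pattern-triggered immunity and rapid stress lists had 1 gene each higher with BLM+INA than with BLM (EFR and STZ), and the other lists with a measured gene had 0 higher and 0 lower.

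Tissue markers and RNA quality were read beside the gain. Of the root markers, EXPA7 (-1.21) and EXPA18 (-0.82) fell with BLM and had gains of 0.05 and -0.25, while PYK10 was at -0.06 and 0.04. Of the green tissue markers, PSAN fell with BLM (-0.52) with a gain of 0.00, and LHCB4.2 and RCA were at -0.06 and 0.02 with gains of -0.22 and -0.13. The guard cell marker FMA had a gain of -0.28, and 0 of the 7 listed vascular markers were paired with a probe set in the gene table. The actin 3′ minus 5′ signal was 0.056, 0.026 and 0.138 in BLM+INA arrays, above the -0.479, -0.021 and -0.129 of BLM arrays. A second actin pair and the GAPDH and ubiquitin pairs overlapped between these groups. The part of the actin difference in the gain was not tested.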

How the data were processed

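Seedling RNA was labelled with biotin and measured on 12 arrays of 1 colour. The authors deposited RMA values on the log2 scale, per the submitters' processing notes, with no version stated, and the base follows from RMA, since no header names it. Every row has a median of 0 (to within 5e-07), so the deposited values had been centred by probe set. The number of arrays limits the precision.

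After 64 control probe sets were set aside, the other 22746 probe sets were fitted in limma 3.58.1 (R 4.3.3) with a mean for each group, two-sided, with Benjamini-Hochberg adjustment and a threshold of 0.05. Of all probe sets, 13513 had exactly 1 gene in the gene table, 503 several and 8730 none. Symbols came from RefSeq, where 1 member gene, AT1G67865, had no match.

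Members, lists and the rule for names were chosen with earlier results of these data known. Named were the members with exactly 1 gene that had the largest or smallest differences in each contrast (15 gains, and 10 or 5 elsewhere), those nearest each threshold, and 3 unnamed probe sets with the largest gains. 265170_at and 247954_at were singled out after their values were seen. Alternatives were array centring, quantile normalization, a filter on dim probe sets, other thresholds, group medians, the replicate block, array weights, robust variances, fewer arrays in the fit and each array left out. Promoter sequences were not used here, so the planned motif counts were not run. Tables and plots used Python 3.11.15 and matplotlib 3.10.9.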

Additional observations from a re-analysis of the deposited data

How the results depend on the processing

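The rule found 53 probe sets, and 57 after array centring, 38 after quantile normalization, 75 with group medians and 53 without dim probe sets. Of the 53 members, these sets held 53, 37, 41 and 53. It found 131 with thresholds of -0.3 and 0.4, which held all 53, and 24 with -0.5 and 0.6, all of them members. With 1 array left out it found 51 to 96, which held 38 to 52 of the members. The fewest, 38 and 39, were kept without BLM replicate 1 and BLM replicate 2. INA against CK called 1 member, and 2 with the replicate block and 2 with the CK and INA arrays only. With 1 array left out it called 1 to 2. AT1G66100 (0.64) passed with the replicate block and with the CK and INA arrays only, and 259272_at (0.44) without BLM+INA replicate 2. The causes were not tested. 247604_at was called in all 12 fits without 1 array (0.72 to 0.86). Deviations of same-numbered arrays correlated between -0.0534 and 0.405 (median 0.127), beside a median of -0.105 for different numbers, and 6 of 12 arrays correlated best with their own number. For the dap spike-in, the difference of the 3′ and 5′ probe sets was -0.665 to -0.198 in the 4 arrays numbered 1 and 0.854 to 1.098 in those numbered 3. The second actin pair had a difference of -0.409 to -0.059 in the arrays numbered 1 and 0.143 to 0.6 in those numbered 3. Same-numbered arrays thus shared some of their deviation, and what the number stands for was not tested. Not every same-numbered pair was above 0.1, so the main fit left the number out, and the block fit is given beside it. The counts of members above, near and below CK moved by less than 1.5 times under bounds of -0.3 and 0.3 and with 1 array left out. The promoter motif counts were not run.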
